A study of Mus musculus with 54 samples.

Results

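CTCF ChIP-seq peaks of wild-type (WT) rescue neural progenitor cells (NPCs) were compared with those of WT rescue embryonic stem cells (ESCs), to ask which CTCF binding sites appear and which disappear when ESCs become NPCs. The comparison used 8 peak lists, 4 from NPCs and 4 from ESCs, of the 54 samples in the series. Peaks of the 8 lists that overlapped by at least 1 bp were merged, which gave 51851 sites. A site was called gained when all 4 NPC libraries and no ESC library had a peak there, and lost when all 4 ESC libraries and no NPC library had one. There were 40 gained sites, 0.0771% of all sites, and 32 lost sites, 0.0617%. Another 5981 sites had a peak in all 8 libraries, and at these the within-library rank of the peaks was compared.

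The WT rescue cells came from one mouse ESC line, E14 (ES-E14TG2a), in which both Ctcf alleles carry an mAID-eGFP tag. OsTir1(F74G), inserted at Rosa26, degrades the tagged protein when the auxin analogue 5-Ph-IAA is given. A Flag-Halo CTCF-WT transgene in the Tigre locus is switched on by doxycycline (dox). NPCs were made by 2 days of differentiation in N2B27 medium on laminin, and ESCs are the undifferentiated cells of the same line. NPCs and ESCs alike received 1 µM 5-Ph-IAA with 1 µg/ml dox for 24 hours, which is meant to replace the tagged protein with the transgenic one. The antibody was raised against CTCF, and how far the tagged protein was depleted was not measured in these lists. ChIP peaks carry no expression values, so the cell type labels were not checked against marker genes.

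CTCF is a protein with many zinc fingers that binds a conserved DNA motif and, together with the cohesin ring, holds the anchors of chromatin loops. Cohesin, whose subunits include Smc3 and Rad21, extrudes DNA until it meets CTCF bound in the right orientation. Most CTCF sites lie away from promoters, in introns or between genes, and are shared among cell types. A smaller group lies at CpG-rich promoters, where open chromatin often surrounds the start site. CTCF binding can be blocked by DNA methylation at CpGs in the motif.

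The best match to the 12-letter CTCF core consensus within 50 bp of the summit is shown for a few gained, lost and shared sites. These examples were partly chosen by how well the core fitted, so they do not show how the kinds of site differ. Each line gives 28 bases, 5′ to 3′ on the strand of the match, read from the mm10 (GRCm38) genome. Capitals mark the core letters that fit the consensus, and lower case marks the flanks and the core letters that do not. The 2 sites with the highest mean rank in all 8 libraries, in Gdf15 (chr8:70629888-70629915, minus strand, coding exon) and at the Nipsnap2 promoter (chr5:129724955-129724982, minus strand), each fitted 11 of 12 letters.
Gdf15: ggtagccgCCgGCAGGGGGCgccgaagc
Nipsnap2: cagtgctgCCgCCAGGGGGCgtgccaag

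The leading gained sites outside promoters held a core within 2 mismatches. They lay in introns of Pemt (chr11:60028629-60028656, minus strand), in a coding exon of Stkld1 (chr2:26953329-26953356, minus strand) and in introns of Syt7 (chr19:10423055-10423082, plus strand) and Megf6 (chr4:154218726-154218753, plus strand), and the Megf6 core fitted all 12 letters.
Pemt: gctcctgcCCAGCAGAGGtCagcaacac
Stkld1: cttcctgcCCtGCAGGaGGCtcaagctg
Syt7: gcctgcccCCACCAGGGtGgacagcggg
Megf6: ctgggagtCCAGCAGGGGGCatgtcagc

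At most gained promoters the best match in the window had more mismatches, and 6 of the 21 held a core within 2. The Cdh2 promoter, which had the highest mean percentile of the gained promoters, had 1 mismatch and is not shown. Those of Tns2 and Fat3, which ranked above Enpp1, had 2 each and are not shown either. The promoters of Amotl2 (chr9:102722470-102722497, minus strand), B3gat2 (chr1:23761929-23761956, plus strand) and Enpp1 (chr10:24711741-24711768, minus strand) fitted 9 letters each, and the Wnk1 promoter (chr6:120037131-120037158, minus strand), which changed rank most, also fitted 9.
Amotl2: gagggctgCCACTAGActGactaaactc
B3gat2: ccaccggagCACTAGGaGGacgcccgag
Enpp1: ggcgagagCgAGCAGGTcGgcacccggc
Wnk1: agcaaagaCCgCCcGGTGtCccagccca

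Lost sites and sites ranked lower in NPCs mostly lay outside promoters, and 75.0% of lost and 77.8% of lower-ranked sites held the core within 2 mismatches. The 2 leading lost sites, in Pde1b and near Tmem67, did not, with 4 and 3 mismatches, and are not shown. Shown are the next lost sites that did, between genes near Gm10320 (chr13:98497636-98497663, minus strand) and Platr7 (chr10:84558703-84558730, minus strand), in an intron of Glt1d1 (chr5:127649266-127649293, minus strand) and in an exon of C130036L24Rik (chr1:86372134-86372161, plus strand), with the lower-ranked site near H2-Q1 (chr17:35302157-35302184, minus strand). Gm10320 fitted 10 letters and the other 4 fitted 11.
Gm10320: gaaaatgaaCACaAGAGGGCgctctctg
Platr7: cataatgaCCACCAGGTGGaacaactgt
Glt1d1: ccctctaaCCtGCAGGGGGCagcactgt
C130036L24Rik: gcagggggCCAGCAGGTGtCagcgccga
H2-Q1: gagcacggCCgCCAGGGGGCagcaggac

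The libraries differed more between replicate numbers than between cell types. The NPC lists held 30555, 21339, 24908 and 15052 peaks for replicates 1 to 4, against 43003, 21995, 23184 and 11189 in ESCs. The log2 number of peaks differed by 0.00 between the groups (exact permutation test over 4 and 4 libraries, two-sided, p = 1). The called sites of any pair of libraries overlapped with a Jaccard index (shared over all called sites) of 0.250 to 0.569. It averaged 0.437 within a cell type and 0.439 between them (exact permutation test, one-sided, p = 0.457). Same-numbered libraries of the 2 cell types shared more, 0.519, than differently numbered ones, 0.412. Replicate 4 stood apart in both cell types, with the shortest list, the lowest median fold enrichment (6.10 in NPCs and 6.62 in ESCs) and the highest share of promoter peaks, and peaks inside both replicate 4 lists carry names of a replicate 2.

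More of the NPC peaks lay at promoters, defined as a summit within 1 kb of a transcription start site (TSS). The share was 26.3, 28.6, 19.1 and 45.3% in NPC replicates 1 to 4, against 18.8, 20.1, 16.7 and 35.1% in ESCs. The NPC share was the higher in all 4 same-numbered pairs, but the spread between replicates was larger than the difference. The mean was 29.8% ± 11.1 in NPCs and 22.7% ± 8.42 in ESCs (SD, n = 4 each), a difference of 7.14 percentage points (exact permutation test, two-sided, p = 0.371; within pairs the exact p was 0.13, the smallest that 4 pairs allow).

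The core motif was less frequent among NPC peaks in all 4 pairs, again by less than the spread between replicates. It was found within 2 mismatches, on either strand, at 73.9, 75.8, 85.2 and 63.6% of NPC peaks, against 80.8, 82.9, 86.3 and 74.1% of ESC peaks. Windows placed 1000 bp away held it in 8.68 to 10.0% of cases. The difference was -6.39 percentage points (exact permutation test, two-sided, p = 0.286; exact p = 0.13 within pairs). NPC peaks also had a lower median fold enrichment in every pair, 7.25, 9.09, 9.18 and 6.10 against 10.7, 10.2, 10.3 and 6.62 in ESCs. The lowest background recovered from the lists was 1.48, 0.529, 0.905 and 2.23 fragments per bp in NPC replicates 1 to 4, against 1.48, 0.446, 0.442 and 1.96 in ESCs, so it was highest in the shortest lists. It was higher in NPCs in all 4 pairs (exact permutation test, two-sided, p = 0.657, and 0.13 within pairs). In both cell types replicate 4 had the highest promoter share and background and the lowest motif share and enrichment. Background did not follow the other measures in every library: ESC replicate 1 had 1.48 with the highest enrichment, 10.7. The part of these measures in the site-level results was not tested.

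**Figure D1:**
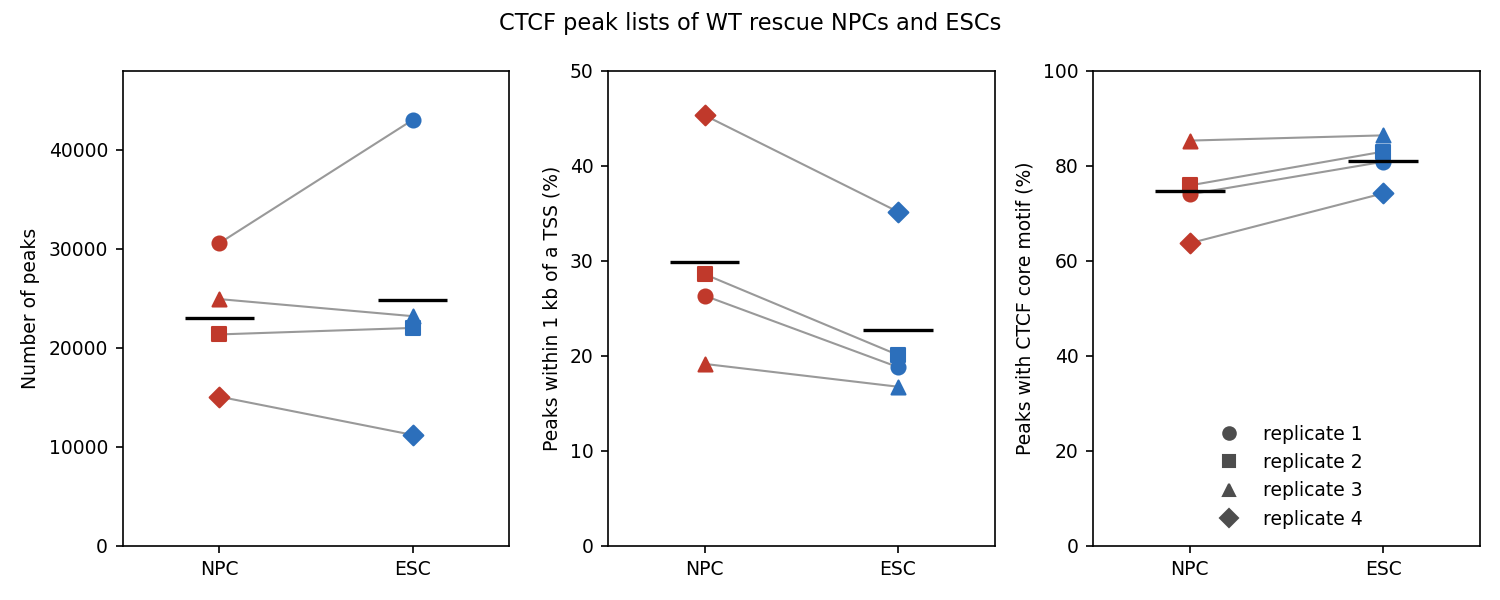
Number of peaks (left), share of peaks within 1 kb of a TSS in percent (middle) and share with the CTCF core motif in percent (right) in the NPC and ESC lists; marker shapes are replicates, grey lines join same-numbered libraries and black bars are means of 4. The NPC promoter share is above the ESC share and the NPC motif share below it in each of the 4 pairs.

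Many sites were seen in a single library, and few switched completely. A peak in only 1 of the 8 libraries was seen at 14249 sites, 5548 of them in an NPC library and 8701 in an ESC library. Of the 5189 sites called in exactly 4 libraries, 40 were the gained and 32 the lost sites, and 2530 had a peak in 2 NPC and 2 ESC libraries. Far more choices of 4 libraries split 2 and 2 than fall within 1 cell type. These counts alone therefore do not show that complete switches were rare. Allowing for 1 more or 1 fewer library, 669 sites had a peak in at least 3 more NPC than ESC libraries and 858 in at least 3 more ESC than NPC libraries. The counts of complete switches moved with single libraries: gained sites numbered 349 without ESC replicate 1, 252 without NPC replicate 3 and 84 without NPC replicate 2 or 4, and lost sites 663 without ESC replicate 4, 52 without ESC replicate 3 and 85, 74 and 94 without NPC replicate 1, 2 or 3. In bulk ChIP, fewer cells with a bound site and weaker binding in each cell cannot be told apart.

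**Figure D2:**
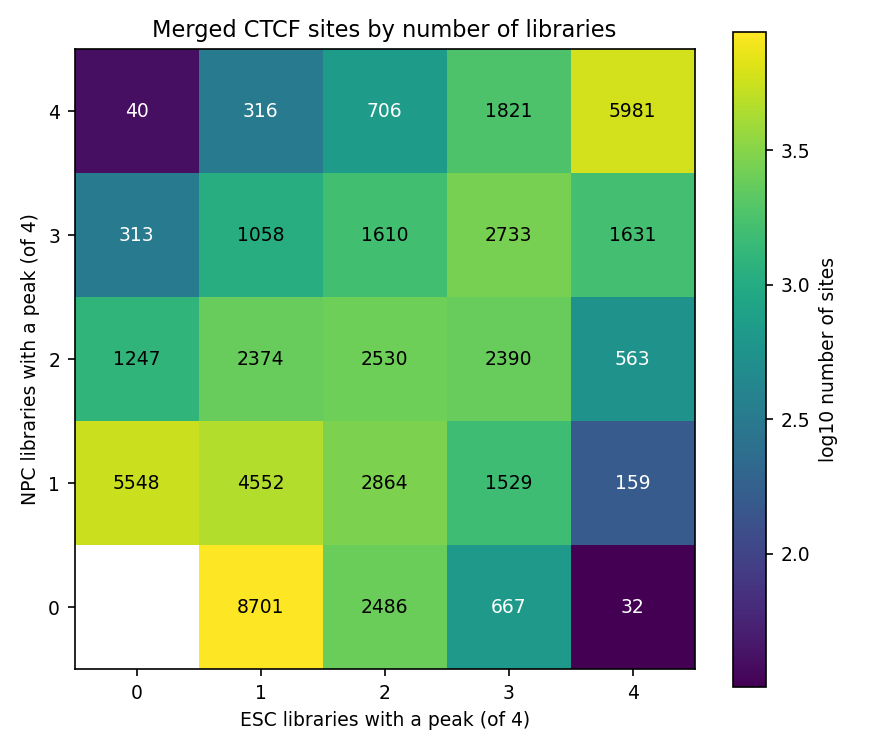
Number of merged CTCF sites by the number of NPC libraries (vertical axis) and ESC libraries (horizontal axis) with a peak; colour is the log10 number of sites. The corners hold 40 gained, 32 lost and 5981 shared sites.

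Sites called in at least 3 of 4 libraries of a cell type were taken as reproducible. Of 16209 such NPC sites, 75.1% were also reproducible in ESCs (95% Wilson interval 74.4 to 75.7%), and of 17506 such ESC sites, 69.5% were in NPCs (68.8 to 70.2%). The place of the site split these shares in opposite ways. ESC promoter sites were kept in NPCs more often, 87.6% of 3742 (86.5 to 88.6%), than distal ones, 64.6% of 13764 (63.8 to 65.4%). NPC promoter sites were present in ESCs less often, 65.9% of 4972 (64.6 to 67.2%), than distal ones, 79.1% of 11237 (78.3 to 79.8%). NPC sites without a core motif were present in ESCs in 57.0% of 3182 cases, and those with one in 79.5% of 13027. These intervals cover counting error only. With 1 library left out a site needed a peak in all 3 that remained, and the first share was then 47.0% without ESC replicate 1 and 48.8% without ESC replicate 2, and the second 45.4% without NPC replicate 1.

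Gained sites had another make-up than lost sites. A promoter held 21 of the 40 gained sites (52.5%), against 2 of the 32 lost sites (6.25%) and 21.5% of all sites. The core motif was present at 52.5% of gained, 75.0% of lost and 77.1% of all sites. Within 150 bp of the summit the median number of CpGs was 16 at gained, 4.5 at lost and 4 at all sites. Within the gained set, the 21 promoters had a median of 26 CpGs and 28.6% with the motif, and the 19 distal sites had a median of 5 CpGs and 78.9% with the motif.

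The same gradient ran through the sites with smaller differences. Among the 629 sites with 3 more NPC than ESC libraries, 58.3% lay at promoters and 49.8% had the motif. Among the 15796 sites with equal numbers the shares were 23.1 and 82.9%, and among the 826 with 3 more ESC libraries they were 7.38 and 87.7%. The promoter share of gained sites depended on the replicates. Without both libraries of replicate 4, chosen after seeing the data, 30.2% of 86 gained and 6.20% of 677 lost sites lay at promoters. With replicates 2 and 3 alone the shares were 36.6% of 1324 and 8.27% of 1294, and with replicates 1 and 4 alone 76.0% of 865 and 13.9% of 552. In each of the 11 reduced sets the promoter share was higher at gained than at lost sites. These sets, and the sites with smaller differences, come from the same 8 lists, so they are not independent observations.

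CTCF libraries that played no part in choosing the sites gave another view. In the 2 libraries of NPCs from E14 cells without degron or transgene, 13.4 and 15.3% of peaks lay at promoters and 90.3 and 88.6% had the motif. Each of these libraries had a peak at only 1 of the 40 gained sites (2.50%), near Sall4 in one and near Rabl2 in the other, against 46.5 and 51.7% of all sites. At the lost sites they had 17 and 23 peaks of 32 (53.1 and 71.9%), and 26 lost sites had a peak in at least 1 of them. The lost sites at Pde1b, Gm35986, Sirt2, Pde6h, Zfp775 and Pitpnc1 had none in either. The labels give no 5-Ph-IAA or dox for the E14 cells, so genotype and treatment, which both differ from the WT rescue cells, cannot be told apart. With replicates 2 and 3 alone, 46.8% of the 1324 gained sites had a peak in an E14 NPC library.

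**Figure D3:**
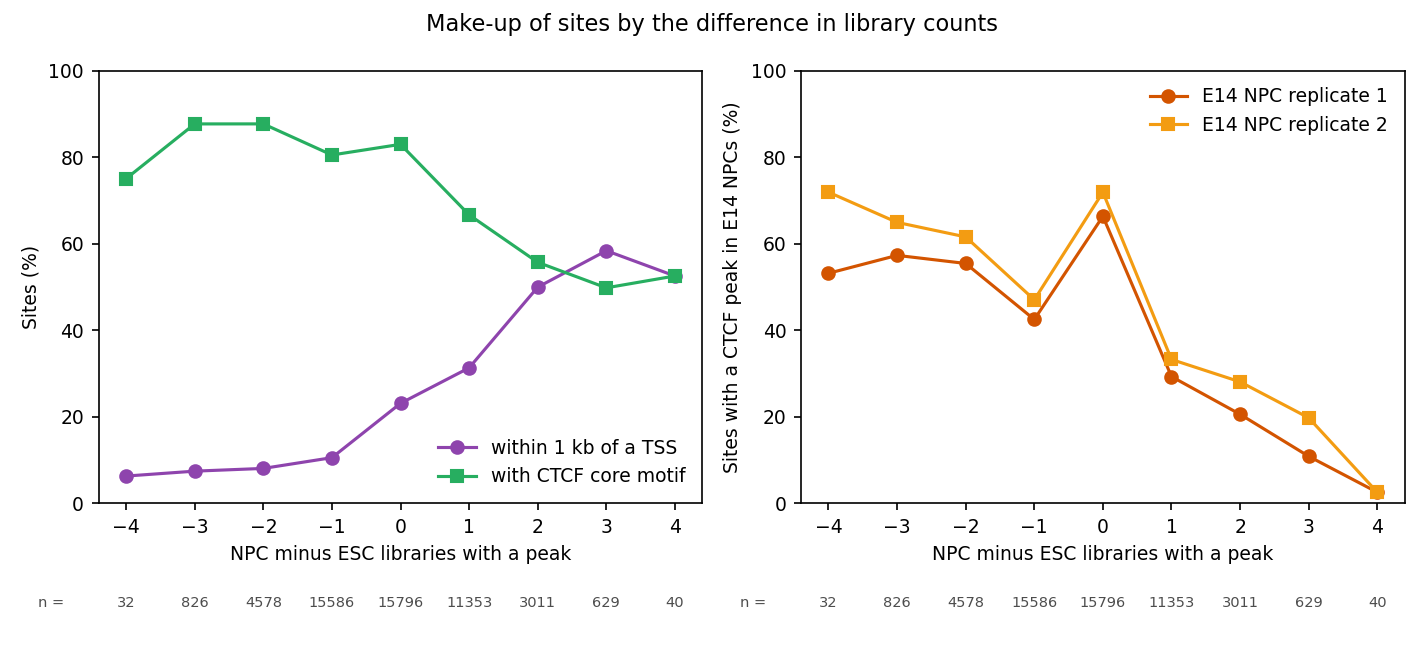
Share of sites within 1 kb of a TSS and share with the CTCF core motif (left), and share with a peak in each of the 2 E14 NPC libraries (right), all in percent, by the number of NPC minus ESC libraries with a peak; n is the number of sites. Promoter shares run between 6.25 and 58.3%, and at a difference of 4 each E14 NPC library calls 2.50% of sites.

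CTCF-ΔZF1 rescue cells, whose transgene lacks the first zinc finger, gave peaks at gained sites in both cell types. The 4 ΔZF1 NPC libraries had a peak at 25, 0, 1 and 39 of the 40 gained sites, and the 4 ΔZF1 ESC libraries at 26, 0, 4 and 25. Over all 51851 sites the shares were 23.4, 19.3, 10.9 and 49.7% in ΔZF1 NPCs and 75.1, 32.1, 28.3 and 29.7% in ΔZF1 ESCs. Gained sites were thus called above these shares in replicates 1 and 4 of NPCs (62.5 and 97.5%) and replicate 4 of ESCs (62.5%), and below them in the other libraries. At the 32 lost sites the ΔZF1 NPC libraries had 1, 11, 1 and 11 peaks, against 31, 18, 12 and 13 in ΔZF1 ESCs, and 26 lost sites had a peak in more ESC than NPC libraries of the mutant, 1 in more NPC libraries. Over all sites 26493 had more ESC and 4446 more NPC calls of the mutant.

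Cohesin was called at few gained sites. A Smc3 peak in at least 1 of 2 libraries was found at 4 gained sites in NPCs (Fat3, Tle3, Bcl9l and H2-DMa promoters) and at 0 in ESCs, against 48.0% of all sites in NPCs and 33.4% in ESCs. Rad21 peaks were found at 3 gained sites in NPCs (Amotl2, Zfp710 and Tle3 promoters; 7.50%) and at 0 in ESCs, against 15.3% of all sites in NPCs and 18.7% in ESCs. At lost sites Smc3 was called at 17 of 32 in NPCs and at 17 of 32 in ESCs. The Smc3 and Rad21 lists come from 2 libraries per cell type, and a missing peak may lie under their calling threshold.

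The strongest gained sites ranked in the upper part of the NPC lists. The rank of a peak is given as a percentile of fold enrichment among the peaks of its own library. The mean percentile of the 40 gained sites in NPCs ran from 5.07 to 72.4, with a median of 26.4, and that of the 32 lost sites in ESCs from 22.9 to 84.3, with a median of 45.2. The leading gained site was in an intron of Pemt, the phosphatidylethanolamine methyltransferase, on chromosome 11 (60028308 to 60028865), at percentile 89.0, 70.1, 49.1 and 81.5 in NPC replicates 1 to 4. It was followed by a coding exon of Stkld1 (82.6, 48.1, 67.8 and 75.8) and an intron of Syt7, a calcium sensor of synaptic vesicle release (53.0, 70.6, 44.4 and 80.5). Each of these 3 sites was above percentile 50 in 3 of the 4 NPC libraries.

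Several of the remaining distal gained sites varied widely across replicates. The Megf6 intron was at percentile 39.5, 33.8, 74.7 and 64.5, and the site at -88028 bp from the TSS of the non-coding gene 4932435O22Rik at 9.0, 69.0, 60.3 and 61.4. An intron of Nctc1, a non-coding RNA near the Igf2-H19 locus, held a site at 8.58, 68.5, 21.3 and 64.3. Sites in Phactr1 (a regulator of phosphatase 1 and actin), Gcat and near Atp2c2 had means of 38.9, 38.0 and 36.1. A gained site at -23805 bp from the TSS of Sall4, which encodes a zinc-finger factor of pluripotent cells, was at 73.7 in replicate 1 and at 3.29 to 16.2 in the others. It was singled out after its values were seen. The other distal gained sites, in or near Mcf2l, Gm20388, Wnk4, Nlrp12, Prph2, Gse1, Grhl2, Rabl2 and Wnt9a, had means of 18.2 to 34.8.

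The 21 gained promoters had mean percentiles of 5.07 to 55.4. The Cdh2 promoter, the start of the N-cadherin gene that marks neural progenitors, had a site at -271 bp from the TSS, at percentile 81.8, 44.3, 13.8 and 81.7. The promoter of Fat3, an atypical cadherin of neurons, was at 73.8, 6.84, 1.53 and 36.1. Amotl2, an angiomotin family member of cell junctions and Hippo signalling, was at 19.1, 48.5, 62.5 and 52.2. B3gat2, a glucuronyltransferase that makes the HNK-1 epitope of neural cells, was at 64.9, 18, 1.93 and 46.7. These promoter sites varied widely, and in replicate 3, the NPC library with the highest motif share, all of them except Amotl2 were below percentile 14.

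Among the other gained promoters, Tns2 (a focal adhesion protein) had a mean percentile of 30.6, Fbn2 (fibrillin 2, of the extracellular matrix) 37.0 and Enpp1 (a pyrophosphatase at the cell surface) 25.1. Zfp710 had 22.8, Tle3 (a Groucho-type corepressor) 21.1, Drd4 (a dopamine receptor) 19.9 and Bcl9l (a coactivator of β-catenin) 19.7. Ankrd16, Slc7a2 (a transporter of basic amino acids), Galnt1, Pdha1 (a subunit of pyruvate dehydrogenase), Cd81 and Glis1 had means of 12.6 to 16.9. The 4 lowest were Fbxl14, H2-DMa, Lama5 (a laminin chain) and Kcna6 (a voltage-gated potassium channel), at 5.07 to 9.94. These last sites were near the bottom of the NPC lists and so close to the calling threshold.

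The ranks of lost sites are percentiles of the ESC lists, whose lengths differ from those of the NPC lists. The median percentile over lost sites was 71.0, 39.7, 39.2 and 28.1 in ESC replicates 1 to 4, and that over gained sites 19.3, 25.4, 11.3 and 43.0 in NPC replicates 1 to 4. An intron of Pde1b, a calmodulin-dependent phosphodiesterase, held the leading one, on chromosome 15 (103522325 to 103522923), at percentile 97.8, 86.0, 95.7 and 57.6 in ESC replicates 1 to 4. Its fold enrichment was 48.9, 18.4, 26.6 and 7.13, and it had no peak in the 4 NPC or the 2 E14 NPC libraries. A site at -23291 bp from the TSS of Tmem67 (a protein of the ciliary transition zone) was at 92.2, 76.5, 66.5 and 71.6, and one near Gm10320 at 91.0, 58.6, 66.7 and 66.0. The exon of C130036L24Rik was at 84.8, 33.6, 76.6 and 63.7 and the Glt1d1 intron at 73.9, 52.5, 66.7 and 48.4. Pde1b, Tmem67 and Gm10320 had all 4 values above percentile 50, whereas each gained site had at least 1 value below it.

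The other leading lost sites lay near Platr7, a non-coding RNA first described in pluripotent cells (80.0, 67.0, 35.6 and 42.7), near Gm35986, in Ttll11 (a tubulin polyglutamylase), near Tmem130, near Gpr1 and near 9430024E24Rik, with means of 51.1 to 56.3. Only 2 lost sites were promoters. Sirt2, a deacetylase of the sirtuin family, had its site at 98 bp from the TSS, at percentile 90.1, 28.2, 41.0 and 54.9. Ttc8, a component of the BBSome of cilia, had one at -826 bp, at percentile 58.9, 22.6, 52.4 and 31.4. The other 19 lost sites had means of 22.9 to 50.6.

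**Figure D4:**
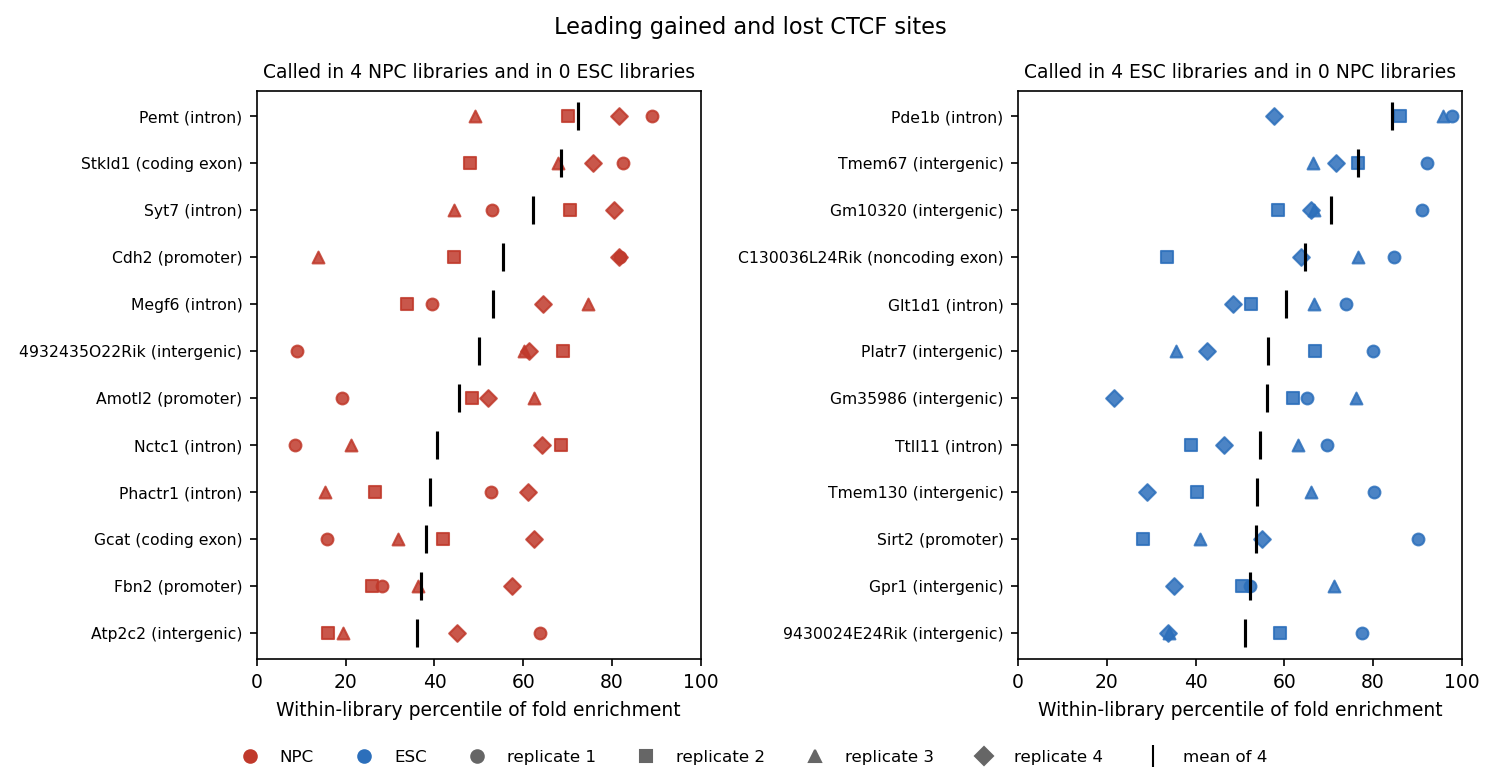
Within-library percentile of fold enrichment of the 12 gained sites with the highest mean in NPCs (left) and the 12 lost sites with the highest mean in ESCs (right); each point is a library, shapes are replicates and bars are means of 4. Pemt leads the gained sites with a mean of 72.4, and Pde1b the lost sites with 84.3.

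At the 5981 sites called in all 8 libraries, 105 ranked higher in NPCs (1.76%) and 27 ranked lower (0.451%) at an adjusted p of 0.05. The test was limma on normal scores of the ranks, with the replicate number as a block and Benjamini-Hochberg adjustment over all 5981 sites. Its effects are in standard deviations of the normal score, NPC minus ESC. They ran from 1.01 to 2.55 among the higher sites and from -2.24 to -1.02 among the lower ones. The calls depended on which replicate pairs were kept. In the blocked fit, leaving out 1 library also takes its same-numbered partner out of the comparison, which lowers the power. Without NPC replicate 1, 2 or 4, or without ESC replicate 1, 2 or 4, limma called 0 sites in either direction. At an unadjusted p under 0.05 these fits had 530 to 671 higher and 370 to 570 lower sites. Without NPC replicate 3 limma called 50 higher and 8 lower, and without ESC replicate 3 it called 176 and 42. Without the replicate block it called 12 higher and 3 lower, and with replicates 2 and 3 alone it called 0, with 570 higher and 419 lower at an unadjusted p under 0.05. It also called 0 in either direction with equal peak numbers (394 higher and 346 lower at an unadjusted p under 0.05) and with a peak in at least 3 of 4 libraries (1301 and 868), and 400 higher and 206 lower on quantile-normalized enrichment. In the full fit 738 higher and 609 lower sites had an unadjusted p under 0.05.

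Promoters made up 79 of the 105 higher sites and 6 of the 27 lower sites, against 2081 of the 5981 sites tested. Put the other way, 3.80% of promoter sites and 0.667% of distal sites ranked higher, and 0.288 and 0.538% ranked lower. When distal sites were tested alone, limma called 0 in either direction, with 388 higher and 343 lower at an unadjusted p under 0.05. The median effect was 0.05 at promoters and -0.10 at distal sites, with -0.05 over all sites. Promoters without the motif had a median effect of 0.16 and 5.87% ranked higher, and promoters with it 0.02 and 3.03%. Distal sites had medians of -0.10 with and -0.12 without the motif. The higher sites had a median of 26 CpGs near the summit, the lower ones 7 and all 5981 sites 8.

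The largest rise was at the promoter of Wnk1, a kinase that controls chloride cotransporters. Its site was at percentile 78.1, 90.0, 84.1 and 90.3 in NPC replicates 1 to 4, against 39.1, 4.71, 2.40 and 14.8 in ESCs, an effect of 2.55 ± 0.22 (SE, limma adjusted p = 0.0298). The Exoc8 promoter, of an exocyst subunit, was at 85.8, 89.6, 50.5 and 74.6 in NPCs, against 23.6, 19.2, 2.86 and 1.14 in ESCs (2.37 ± 0.28). The Pcolce2 promoter, of a collagen-processing enhancer, was at 97.7, 90.8, 91.3 and 98.2 in NPCs, against 64.2, 45.1, 7.47 and 57.4 in ESCs (2.26 ± 0.24). At these 3 sites the lowest NPC value was above the highest ESC value. That held at 67 of the 105 higher sites and at 182 of all 5981 sites tested.

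Higher ranks were also found at the promoters of Hira (a histone H3.3 chaperone; 2.24 ± 0.29), Nfatc1 (a calcineurin-dependent factor; 2.20 ± 0.22) and Nme2 (a nucleoside diphosphate kinase; 2.15 ± 0.23), each as effect and SE. Sema3f, which encodes a secreted axon guidance cue, was at 91.2, 84.2, 51.7 and 93.5 in NPCs, against 43.4, 6.66, 1.19 and 39.8 in ESCs (2.17 ± 0.21). Efcab2, Ube2d2a (a ubiquitin-conjugating enzyme), Kcng2 and Fras1 (an extracellular matrix protein) had effects of 1.96 to 2.08, and Kcnk12, a potassium channel gene whose site lay in a coding exon, 2.04. All 12 leading sites had a limma adjusted p of 0.0298 or 0.0348. Of the 12, 6 had no peak in either E14 NPC library, and only Hira had one in both.

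Of the 27 lower-ranked sites, 11 lay between genes, 7 in introns, 6 at promoters and 3 in exons. A site at 131598 bp from the TSS of Adgrd1, an adhesion G protein-coupled receptor, was at percentile 42.8, 31.1, 11.7 and 15.4 in NPCs, against 96.4, 86.3, 94.2 and 66.9 in ESCs (effect -2.24 ± 0.23, limma adjusted p = 0.0298). A site in Nt5m, a mitochondrial nucleotidase, was at 26.8, 38.1, 35.0 and 5.81 in NPCs, against 91.8, 88.1, 78.3 and 49.1 in ESCs (-1.80 ± 0.21). A site at -18235 bp from the TSS of H2-Q1, a class I gene of the histocompatibility complex, was at 28.7, 33.3, 49.4 and 45.2 in NPCs, against 91.4, 90.0, 90.1 and 77.6 in ESCs (-1.65 ± 0.22). In all 3 the highest NPC value was below the lowest ESC value. The same was true of 18 of the 27 lower sites and of 79 of all 5981 sites tested.

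Sites near Tekt1 and BC018473, in Cxcl17 (a chemokine gene), near Gm28415 and Gm26837, in Cfap20 (a ciliary protein), near Gm15775 and Ttpal and in Tepp completed the 12 leading lower sites, with effects of -1.59 to -1.34. Of the other 15, the promoters were those of Arhgap27, Map7 (a microtubule-associated protein), Lgi4, Pls1, Tdrd12 and Pcdhgb7 (a clustered protocadherin), with effects of -1.24 to -1.08. Other lower sites lay in Zfhx3 (-1.23 ± 0.20) and upstream of Gbx2 (-1.02 ± 0.18), both homeobox factors of the nervous system, and in Aldh1l1 (-1.31 ± 0.23), an enzyme of astrocytes. These names outside the 12 leading sites were picked after their values were seen, except Pcdhgb7.

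**Figure D5:**
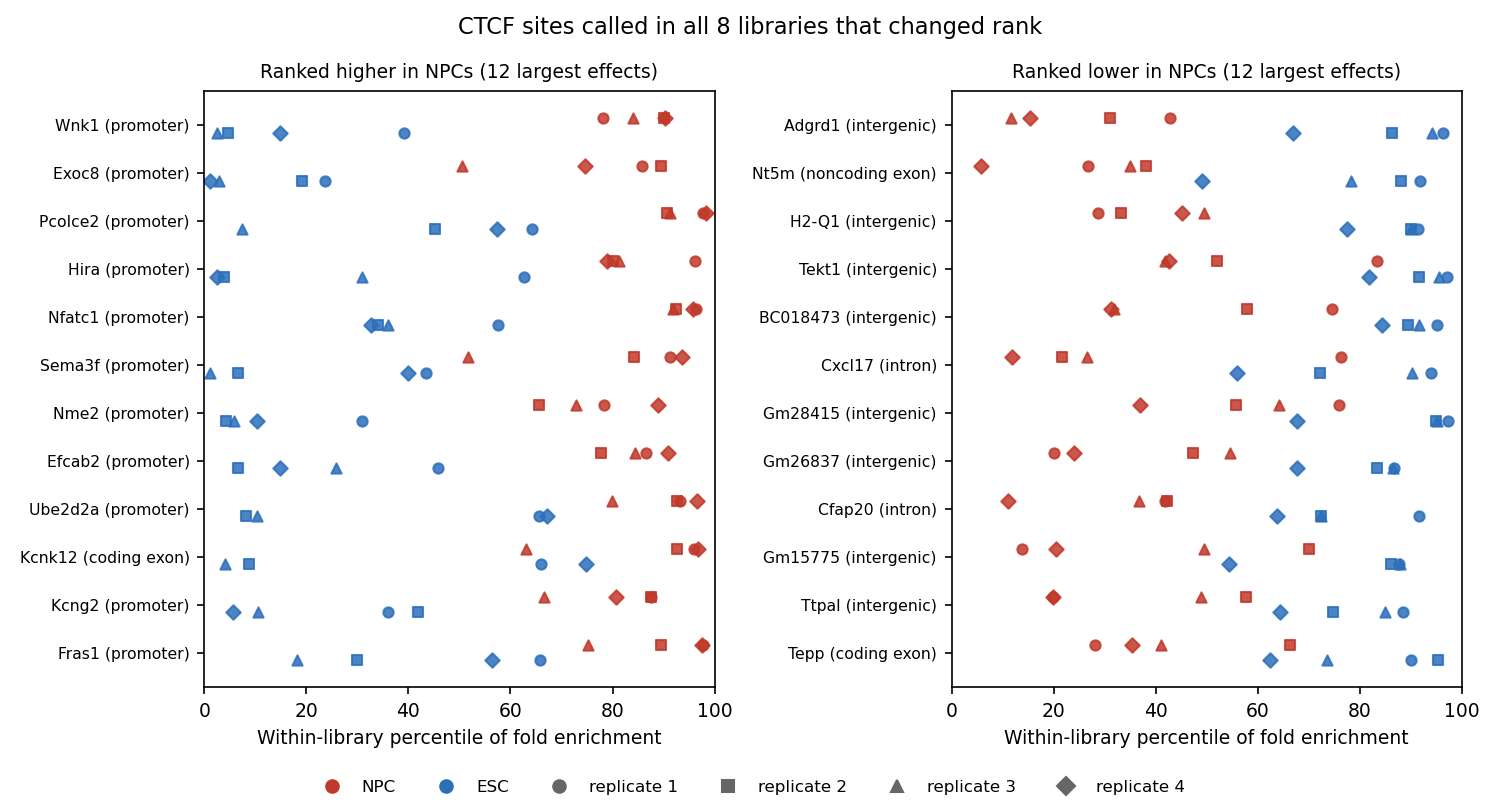
Within-library percentile of fold enrichment in NPCs (red, upper row of each site) and ESCs (blue, lower row) at the 12 sites with the largest rise (left) and the 12 with the largest fall (right) among sites called in all 8 libraries; shapes are replicates. At Wnk1 the NPC values are 78.1 to 90.3 and the ESC values 2.40 to 39.1.

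Cohesin and the independent CTCF libraries were read at the same sites. A Smc3 peak in at least 1 of 2 libraries was present at 55 of the 105 higher sites in NPCs (52.4%) and at 6 in ESCs (5.71%), whereas over all 5981 sites the shares were 86.8 and 72.8%. At the 27 lower sites it was present at 24 in NPCs and 21 in ESCs. Rad21 was called at 2 higher sites in NPCs and 0 in ESCs, and at 9 lower sites in NPCs and 17 in ESCs, against 41.3% of all 5981 sites in NPCs and 47.2% in ESCs. Both E14 NPC libraries had a peak at 41 of the 105 higher (39%), 22 of the 27 lower (81.5%) and 87.4% of all 5981 sites.

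In ΔZF1 rescue cells, 2117 of the 5981 sites had a peak in all 8 ΔZF1 libraries, 18 of them among the 105 higher and 2 among the 27 lower sites. The ΔZF1 NPC minus ESC effect was above 0 at 17 of the 18 higher sites (median 0.55) and at 0 of the 2 lower sites (median -0.42), against 48.7% of the 2117 (median -0.01). Limma called 0 of the 2117 sites in either direction in the mutant, with 138 higher and 116 lower at an unadjusted p under 0.05. ΔZF1 and WT rescue share no CTCF library, but the same replicate numbers recur. Counted by calls instead, 5 of the 105 higher sites had a peak in more NPC than ESC libraries of the mutant and 62 in fewer, beside 203 and 3061 of all 5981 sites.

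Genes that mark cell identity held few sites, so their counts can barely be read against the 0.0771% gained and 0.0617% lost over all sites. The 26 neural progenitor genes examined had 44 sites, of which 1 was gained, at Cdh2, and 0 were lost. Of these 44 sites, 3 were called in all 8 libraries and 0 changed rank. The 23 pluripotency genes had 45 sites with 0 gained, 0 lost and, of 5 tested, 0 that changed rank. In all lists a gene was given only the sites in its body or within 1 kb of its TSS. Sall4 is on the pluripotency list, and the gained site at -23805 bp from its TSS is therefore not counted. The 18 neuronal genes had 65 sites with 1 gained, in Syt7, and 0 lost. Median effects were 0.41 for the 3 neural progenitor, 0.05 for the 5 pluripotency and 0.26 for the 9 neuronal sites tested, beside -0.05 for all sites.

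In the remaining lists 3 sites ranked higher and 1 lower. Krt8, a keratin of simple epithelia in the mesoderm and endoderm list, had a promoter site at 86.7, 82.3, 59.8 and 82.4 in NPCs, against 70.6, 27.6, 13.4 and 54.4 in ESCs (1.14 ± 0.20, limma adjusted p = 0.0439). Hoxb3, a homeobox gene of the hindbrain, had one in a coding exon (1.15 ± 0.19, limma adjusted p = 0.0411). The Fam53b promoter, inside the annotated span of the Fgf receptor gene Fgfr2, was at 1.84 ± 0.23 (limma adjusted p = 0.0298). Among 73 sites in the clustered protocadherins, the promoter of Pcdhgb7 was at -1.08 ± 0.19 (limma adjusted p = 0.0439). The lists of glial, epiblast, Notch and Hedgehog, axon guidance, imprinted, cohesin and housekeeping genes had 0 gained, 0 lost and 0 called sites, and Sema3f is not on the axon guidance list.

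Podxl and Grb10, the genes the study went on to edit, had CTCF sites in both cell types. Podxl, a sialomucin of the cell surface, had 5 sites, of which 1, in an intron, was called in all 8 libraries (effect -0.17 ± 0.28, limma adjusted p = 0.737). Grb10, an imprinted adaptor of insulin signalling, had 3 sites, of which 2 were called in all 8. The intronic one had a mean percentile of 89.8 in NPCs and 91.6 in ESCs (-0.04 ± 0.21), and the promoter one 94.1 in NPCs and 86.0 in ESCs (0.41 ± 0.26). The promoter of Ctcf itself was bound at a mean percentile of 99.5 in NPCs and 97.4 in ESCs (0.80 ± 0.18, limma adjusted p = 0.0734). None of these passed the threshold. Dlx3 had no site in its body or within 1 kb of its TSS, and sites farther off were not counted. The study describes its promoter as bound by CTCF and as lying at a loop anchor, and the difference was not examined.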

How the data were processed

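CTCF ChIP-seq peak lists of WT rescue NPCs and ESCs were used as deposited. The authors aligned reads to mm10 with Bowtie2, used SAMtools to drop reads of mapping quality under 30, Picard to drop duplicates and bedtools to drop blacklisted regions, and ran the MACS2 peak caller at a q of 0.01. Column 7 of the deposited lists is the fold enrichment ratio over background at the summit, columns 8 and 9 are the deposited −log10 p and −log10 q, and column 10 is the summit offset that the authors' peak caller wrote. The lists hold no read totals, so the number of sequenced reads is unknown. The lowest background, in fragments per bp, was recovered from each list's fold enrichment and −log10 p up to 60, where whole fragment counts fitted 100% of peaks to within 0.002 in −log10 p. The labels do not say whether replicates are separate cultures, so p-values measure only the spread between libraries.

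Peaks of the 8 lists sharing at least 1 bp were merged. The median summit of the peaks merged into a site placed it in GENCODE vM21 on GRCm38.p6: promoter (within 1000 bp of a TSS), exon or UTR, intron or intergenic. A site took the name of the gene whose promoter or body holds it, otherwise of the nearest TSS. Fold enrichment was turned into a within-library rank, and the normal scores of the ranks at sites called in all 8 libraries were tested with limma 3.58.1 (R 4.3.3), with the replicate number as a block and Benjamini-Hochberg adjustment at 0.05. The replicate numbers come from the labels, which do not say that they mark a shared batch. Deviations of same-numbered NPC and ESC libraries from their group means correlated at 0.218, 0.355, 0.230 and 0.391 for replicates 1 to 4, each over 0.1, whereas differently numbered libraries reached at most 0.162. Library summaries were compared with exact permutation tests (for 4 against 4 the smallest two-sided p is 0.0286), and shares have 95% Wilson intervals. The core motif was searched on both strands, within 50 bp of the summit, with at most 2 mismatches. Python 3.11.15, numpy 2.4.6, pandas 2.3.3, scipy 1.17.1, pysam 0.24.0, samtools 1.23.1 and matplotlib 3.10.9 were used, and the limma step was tested on simulated data.

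The sites named are the 12 gained and 12 lost with the highest mean percentile, the 12 with the largest limma effect each way, called sites in listed genes, sites of Podxl, Grb10, Dlx3 and Ctcf, and switched promoters. The sites and gene lists were chosen with earlier results of these data known. Alternatives varied the peak threshold, the way sites were merged, the ranks, the sites tested, the block and the libraries. ΔZF1, E14, Smc3 and Rad21 lists were read at the merged sites, except that the promoter and motif shares of the E14 lists cover all their peaks. The other files of the series were not used here.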

Additional observations from a re-analysis of the deposited data

Results flagged for a closer look

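In 84 sets of 4 replicate values, a lowest or highest value stood apart from the other 3 by more than Dixon's 95% critical value in 9 sets. For independent, normally distributed values chance gives this in about 1 of 20 sets. Most of these sets are percentiles at leading sites picked from the same libraries, so the 9 cannot be set against that rate. ESC replicate 4 was the library that stood apart in 5 of the 9. Its median fold enrichment was 6.62, against 10.2 to 10.7 in the other ESC libraries. At sites that ranked lower in NPCs its percentile was 77.6 near H2-Q1, 67.7 near Gm28415, 67.7 near Gm26837 and 54.4 near Gm15775, below the other ESC libraries each time. Near H2-Q1 and Gm26837 it was above every NPC library (highest 49.4 and 54.6), and near Gm28415 and Gm15775 it was below 1 of them.

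Among sites that ranked higher in NPCs, the Hira promoter stood at percentile 96.2 in NPC replicate 1, above 79.0 to 81.2 in the other NPC libraries. The coding exon of Kcnk12 stood at 63.0 in NPC replicate 3, below 92.6 to 96.8 in the others. The Nfatc1 promoter stood at 57.5 in ESC replicate 1, above 32.7 to 36.0 in the other ESC libraries. The gained site near 4932435O22Rik stood at 9.0 in NPC replicate 1, below 60.3 to 69.0 in the others.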

How the results depend on the processing

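The higher promoter share of NPC peaks and their lower motif share kept their direction under every alternative run; leaving out 1 library gave 1.98 to 11.3 and -9.92 to -2.72 percentage points, and pairing by replicate number left the promoter difference at 7.14 points (exact permutation p = 0.13). Gained sites, 40 in all, numbered 72 with equal peak numbers, 865 with replicates 1 and 4, 1324 with 2 and 3, 86 with 1, 2 and 3, and 42 to 349 with 1 library left out. Lost sites, 32 in all, numbered 101, 552, 1294, 677 and 32 to 663 under the same settings, and fewer libraries make a complete switch easier to meet. Limma called 105 higher and 27 lower sites with the replicate block, 12 and 3 without the block, 604 and 438 with replicates 1 and 4, and 400 and 206 on quantile-normalized enrichment. With 1 library left out, and so its pair out of the blocked comparison, limma called 0 to 176 higher and 0 to 42 lower. With the motif required it called 40 and 4. It called 0 in either direction with replicates 2 and 3, or 1, 2 and 3 (unadjusted p under 0.05: 570 and 419, 776 and 522), with a peak in at least 3 of 4 libraries of each cell type, missing ranks left out (1301 and 868), at distal sites (388 and 343), at sites of both E14 libraries (553 and 470) and with equal peak numbers (394 and 346); the cause was not tested. The difference in log2 peak number ranged over -0.332 to 0.315 with 1 library left out and was 0.0299 with replicates 2 and 3. The Jaccard difference, within minus between cell types, was -0.00178, and ranged over -0.0177 to 0.0175 with 1 library left out; it was 0.0119 with replicates 2 and 3, 0.0294 with equal peak numbers and 0.0249 over pairs of unlike number in the replicate block. The share of ESC sites reproducible in NPCs was 68.0% on summits within 150 bp, 72.1% with at least 2 of 4 libraries, 73.1% with replicates 1 and 4, and 45.4 to 91.0% with 1 library left out. The share of NPC sites reproducible in ESCs was 76.5% at a −log10 q of at least 5, 76.1% with equal peak numbers, 78.9% with at least 2 of 4 libraries, 61.4% and 73.5% with replicates 1 and 4 or 2 and 3, and 47.0 to 87.5% with 1 library left out. For limma, the restrictions to motif, distal, E14 and equal-sized lists, and for all results that to replicates 1, 2 and 3, were chosen after seeing the data. None of the 12 leading higher or 12 leading lower sites reversed its direction, in reruns on mostly the same data that chose them. The limma adjusted p was no longer under 0.05 in 118 of 204 reruns of the higher and 162 of 232 of the lower sites. Gained and lost sites were rerun only with the stricter q, equal peak numbers and summits within 150 bp. There the difference in library counts moved in 18 of 72 reruns. These settings only drop or regroup the same peaks, so they could hardly reverse a direction, and none reversed. The other named sites were not rerun one by one.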

Other observations

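Some changed sites of opposite direction lay close together. Among the 204 sites that were gained, lost or changed rank, 48 pairs lay within 1 Mb of each other, 26 of the same and 22 of opposite direction. On chromosome 8, the site in Tepp, which ranked lower in NPCs, lay 38.6 kb from the Mmp15 promoter, which ranked higher, and Mmp15 (a membrane-bound matrix metalloproteinase) lay 76.1 kb from the lower-ranked site in Cfap20. On chromosome 11, the gained Pemt site lay 148 kb from the lower-ranked site in Nt5m and 531 kb from the one near Gm26837, and the lower-ranked Arhgap27 promoter lay 68.3 kb from the higher-ranked site in an intron of Plekhm1. These pairs were picked after their values were seen, and how often unselected sites lie this close was not tested.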
